A study of Mus musculus with 24 samples.

Results

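The genes described here are 33 genes of the lysosome, of 24046 genes in the count table, and all 33 were among the 14099 genes with enough reads to be tested. They were listed by symbol to ask whether other lysosomal genes follow Gla, which encodes alpha-galactosidase A, in one set of libraries, and the question was chosen by the measured values of Gla there. Gla was the single gene that passed the test in that set, the MxCre set titled A1b, and that result prompted the list, so the values of Gla there are a description and carry no test. The list was sorted into 9 glycosidases, 9 cathepsins and other peptidases, 5 enzymes and activators of lipid breakdown, 4 sulfatases and acid phosphatases, and 6 membrane proteins and sterol carriers.

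RNA was sequenced from 24 samples of bone marrow leukaemia cells of moribund mice. The mice had received secondary transplants of cells carrying MLL-AF9, a fusion oncogene of acute myeloid leukaemia. The samples form 4 sets, each with 3 control and 3 floxed libraries, and no controls are shared between sets. Whether a group's libraries stem from separate leukaemias is not stated, so each p-value reflects the spread between these samples alone, which may be technical.

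In the VavCre Arid1b set the control cells were Arid1b +/+ VavCre+ and the floxed cells Arid1b fl/fl VavCre+. In the VavCre Arid2 set they were Arid2 +/+ VavCre+ and Arid2 fl/fl VavCre+. Vav drives Cre in blood-forming cells. In the remaining 2 sets Cre came from Mx, an interferon-inducible promoter, and controls and floxed cells alike were MxCre+ in mice injected with pIpC, at 12.5 ug per g of body weight 3 times within a week from day 21 after transplantation. The set titled A2 is described in its cell type label as Arid1b, and the set titled A1b as Arid2. Because of this conflict both MxCre sets carry their titles as names here, with no statement of which gene was deleted. No sort of the marrow cells, age of the mice or number of leukaemia clones is given in the labels, so cells of the host may be present.

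Lysosomes are acidic compartments in which hydrolases take apart proteins, glycans, lipids and sulfated sugars. Most of these enzymes are sorted there by a mannose 6-phosphate tag, and many of their genes are known targets of TFEB, a transcription factor that reads E-box motifs when nutrients are short. In the myeloid lineage lysosomal proteases are abundant in monocytes and macrophages, where they also process antigen, and tartrate-resistant acid phosphatase marks osteoclasts.

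Levels are in CPM, read counts relative to the library size after scaling for library composition. Changes are log2 fold changes of floxed over control ± standard error (SE), where 1 is a doubling. Tests are quasi-likelihood tests in edgeR, with p adjusted by Benjamini-Hochberg over the 14099 genes of a comparison, and a gene is called under 0.05. Library totals ran from 12069153 to 38315410 counts. The lysosomal genes took between 0.666% and 1.22% of the counts of a library. The summed level of leukaemia genes such as Myb lay between 2500 and 4290 CPM in every library, with none of them at 0 in any group. This sum hides shifts of single genes in opposite directions. In the VavCre Arid2 set Hoxa9 and Hoxa10 lay at -2.36 ± 0.59 and -3.58 ± 0.88, and Cd34 at 4.09 ± 1.69. Each had no overlap between groups and none was called (edgeR adjusted p 0.0534, 0.0507 and 0.193). In the VavCre Arid1b set Arid1b lay at 186 to 367 CPM in controls and at 140 to 184 in floxed libraries, and in the VavCre Arid2 set Arid2 lay at 218 to 443 and at 197 to 290. Neither was called (edgeR adjusted p 0.407 and 0.802), and a transcript without the floxed exons still gives reads. In both VavCre sets the mean of the other gene was lower too. Arid2 went from 323 to 210 CPM beside floxed Arid1b, and Arid1b from 321 to 216 beside floxed Arid2. Under MxCre, means went from 265 to 178 CPM (Arid1b) and 345 to 289 (Arid2) with the title A2. With the title A1b they went from 174 to 190 and 229 to 309 CPM. Control and floxed ranges overlapped for each of these means, while those of Arid1b in the VavCre Arid1b set did not.

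A few libraries stood apart. The MxCre set titled A1b had such libraries in both groups. In its floxed 2 longer genes lay lower (Spearman correlation of -0.4 across 13410 genes) and erythroid markers summed to 692 CPM. In its floxed 3 immediate-early genes summed to 6120 CPM, against 267 to 629 in the rest of the set. Its floxed 1 had the lowest share of counts in lysosomal genes, 0.666%. With floxed 1 left out, edgeR called 10.7% of all genes in this set, and with it kept 0.00709%. Control 2 of this set had more neutrophil granule transcripts (19500 CPM, while controls 1 and 3 had 8540 and 5700). It had fewer mast cell, basophil and eosinophil transcripts (25.6 CPM, while controls 1 and 3 had 260 and 254). Erythroid markers summed to 1230 CPM in floxed 3 of the set titled A2, and control 3 of the VavCre Arid1b set neutrophil granule genes at 16500 CPM, against 2540 to 6580 in the rest of its set. Y-linked Kdm5d was present in the 3 controls of that set and at 0 in its 3 floxed libraries. In the MxCre set titled A2 it was at most 0.0482 CPM in controls and at least 42.1 in floxed libraries. The MxCre set titled A1b was mixed, with Kdm5d at 56.6, 0 and 56.3 CPM in controls 1 to 3 and at 35.2, 0 and 0 in floxed 1 to 3. In the VavCre Arid2 set it was at 56.2 CPM in floxed 2 and at 0 in the rest. Gla and Lamp2 are X-linked.

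Gla removes terminal alpha-galactose from glycolipids and is deficient in Fabry disease. It was at 22.0, 19.4 and 23.9 CPM in controls 1 to 3 of the MxCre set titled A1b. In floxed 1 to 3 it was at 40.2, 40.8 and 51.6 CPM. Every floxed library lay above every control, and above every library of the other sets. Raw counts were 284 to 369 in the controls and 470 to 620 in the floxed libraries. The log2 fold change was 1.02 ± 0.15 with a 95% interval of 0.70 to 1.34, a 2.03-fold difference. It stayed between 0.89 and 1.10 under every alternative tried.

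In the other sets edgeR did not call Gla. The MxCre set titled A2 had it at 33.3, 28.9 and 37.0 CPM in controls and at 23.9, 23.2 and 22.7 in floxed libraries. The groups did not overlap, with the floxed libraries lower, at a log2 fold change of -0.51 ± 0.15 (edgeR adjusted p 0.267). Voom with sample weights called Gla lower in that set (adjusted p 0.031), where it called 8.53% of all genes. The VavCre Arid1b set had 29.8, 33.7 and 28.3 CPM in controls and 29.3, 22.7 and 26.6 in floxed libraries, which overlapped (log2 fold change -0.22 ± 0.15, edgeR adjusted p 0.391). The VavCre Arid2 set had 24.8, 26.1 and 30.4 CPM in controls and 28.3, 37.5 and 29.5 in floxed libraries, which overlapped too (log2 fold change 0.23 ± 0.15, edgeR adjusted p 0.416). With a term for Y-positive libraries, the value was 1.08 in the MxCre set titled A1b and -0.66 in the set titled A2. Within the set titled A2 the presence of the Y chromosome and the genotype cannot be told apart. There the term rests on libraries of other sets.

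**Figure D1:**
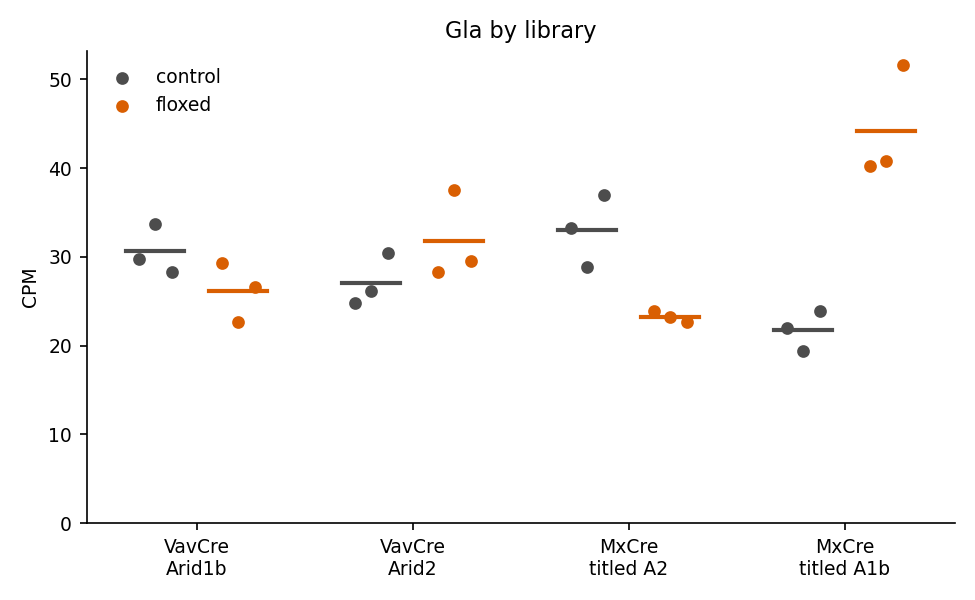
Level of Gla in CPM (vertical axis, from 0) in each of the 24 libraries (points), by set, with control libraries in grey, floxed libraries in orange and the group mean as a bar. The 3 floxed libraries of the MxCre set titled A1b sit between 40.2 and 51.6 CPM, above all others, and the controls of that set between 19.4 and 23.9 CPM.

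Gla lies on chromosome X between 134588149 and 134601125 on the minus strand (GRCm38, GENCODE M21), and no annotated gene overlaps it. Hnrnph2, a splicing factor gene, starts 54 bases from its start and runs the other way. Hnrnph2 was at 97.7, 113 and 86.6 CPM in the controls of the MxCre set titled A1b and at 95.1, 83.3 and 89.6 in the floxed libraries, with a log2 fold change of -0.15 ± 0.12 (edgeR adjusted p 0.53). Rpl36a, a ribosomal protein gene, ends 87 bases from the end of Gla. It was at 151, 112 and 146 CPM in controls and 153, 379 and 189 in floxed libraries, a log2 fold change of 0.82 ± 0.32 (edgeR adjusted p 0.198). The floxed libraries of Rpl36a lay above all controls, with floxed 2 far above the rest. The strand setting of the counting is not given, and whether reads of Rpl36a and Gla mix was not tested.

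The promoters shown hold the 8-base palindrome TCACGTGA, an E-box with the flanks that TFEB prefers, with 2 copies each for Gla and Ctsa and 1 each for Ctsd and Mcoln1. The motif was searched on both strands, in windows from 250 bases before to 50 after the start in RefSeq (GRCm38.p6), which were found for 29 of the 33 genes and not for Asah1, Ctsb, Ctsh and Npc1. The sites of Gla lie at chrX:134601215-134601244 and chrX:134601182-134601211 on the minus strand, and the motif begins 228 and 195 bases before the RefSeq start. Both fall within the span of Hnrnph2 in GENCODE M21, near its start. Those of Ctsa lie at chr2:164833749-164833778 and chr2:164833766-164833795 on the plus strand, and the motif begins 13 bases before the start at the former and after the start at the latter. Those of Ctsd (chr7:142387908-142387937, minus strand) and Mcoln1 (chr8:3500462-3500491, plus strand) begin 99 and 46 bases before the start. Gaa, a gene called in another set, has the 6-base core alone at chr11:119267811-119267840. Each line gives 30 bases, 5′ to 3′ on the strand of the gene, with the motif in capitals.
Gla, site 1: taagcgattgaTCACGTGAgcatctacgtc
Gla, site 2: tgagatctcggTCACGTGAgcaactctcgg
Ctsa, site 1: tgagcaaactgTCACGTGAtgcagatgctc
Ctsa, site 2: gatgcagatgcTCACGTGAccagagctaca
Ctsd: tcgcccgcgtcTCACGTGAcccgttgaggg
Mcoln1: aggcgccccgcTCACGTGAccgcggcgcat
Gaa: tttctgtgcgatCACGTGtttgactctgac

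The 6-base core CACGTG, which the longer motif contains, was in 9 of 29 windows of lysosomal genes (31.0%) and in 8.09% of 27025 genes. The 9 genes were Arsa, Ctsa, Ctsd, Ctsl, Gaa, Gla, Glb1, Lamp1 and Mcoln1, and Lamp1 held 4 copies. TCACGTGA was in 4 of 29 (13.8%) and in 1.12% of all genes. The 10-base palindrome of the CLEAR element was in 0 of 29 and in 0.37% of all genes. In the MxCre set titled A1b the log2 fold changes of Ctsa, Ctsd and Mcoln1 were -0.13 ± 0.25, 0.14 ± 0.17 and -0.06 ± 0.16. That of Gla was 1.02. The part of the motif or of TFEB in these changes was not tested.

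No other lysosomal gene passed the test in the MxCre set titled A1b. Of the 32 genes other than Gla, 0 were called by edgeR, against 0.00709% of all genes, that single gene being Gla. This 0 was fixed before the list was drawn, so it does not answer whether other lysosomal genes follow Gla. At an unadjusted p under 0.05 there were 7 of 32, beside 17.4% of all genes. DESeq2 called 1 of the 32, Ctsl, beside 3.40% of all genes, and voom with sample weights called 0, beside 0.0851%. The 32 log2 fold changes had a median of 0.02, beside 0.007 for all genes, with 17 above 0 and 15 below. For 25 of the 32 the 95% interval lay wholly below 1.02, the value of Gla. For 7 the interval reached it, and the point values of Ctsl and Ctsc lay above it. That value chose the list and is itself uncertain, with a 95% interval of 0.70 to 1.34. These counts are therefore a description and no test against Gla.

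The glycosidases other than Gla lay on either side of 0 in this set. Neu1, a sialidase, was highest at 0.40 ± 0.31, and Gaa, the acid alpha-glucosidase that degrades glycogen, lowest at -0.49 ± 0.21 (edgeR adjusted p 0.237). Gaa was at 127, 133 and 124 CPM in controls and at 116, 65.8 and 90.7 in floxed libraries, all lower. Hexa and Glb1, which like Gla act on glycolipids, had log2 fold changes of -0.29 ± 0.26 and -0.11 ± 0.30. The remaining values ran from -0.29 for Man2b1 to 0.12 for Fuca1.

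Among the peptidases, Ctsl, a cysteine protease, had the highest point value of the list. Its controls were at 31.3, 20.6 and 29.5 CPM and floxed 1 to 3 at 18.0, 126 and 137, so that floxed 1 lay below all controls and the others far above. The log2 fold change was 1.78 ± 0.55 (edgeR adjusted p 0.14, and 0.00696 to 0.724 under the alternatives). Without floxed 1 it was 2.27 and called (edgeR adjusted p 0.00696), and without floxed 2 and 3 together with 2 libraries of other sets it was -0.58. Ctsc, which activates the serine proteases of granules, was at 88.1, 8.97 and 60.2 CPM in controls and at 40.8, 224 and 99.8 in floxed libraries, with overlap (log2 fold change 1.22 ± 0.88, edgeR adjusted p 0.488). Tpp1, a tripeptidyl peptidase, lay at -0.35 ± 0.14 (edgeR adjusted p 0.214).

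Acp5, the tartrate-resistant acid phosphatase, was the only gene besides Gla whose floxed libraries all lay above the controls in this set. It was at 11.6, 13.8 and 13.0 CPM in controls and at 24.3, 16.0 and 27.5 in floxed libraries, a log2 fold change of 0.82 ± 0.36 (edgeR adjusted p 0.249). Arsb, an arylsulfatase of dermatan sulfate, was at 111, 146 and 140 CPM in controls and at 85.4, 110 and 69.7 in floxed libraries, all lower (log2 fold change -0.58 ± 0.27, edgeR adjusted p 0.269). Besides Gla, 3 of 32 genes did not overlap between groups, 1 higher and 2 lower, beside 14.1% of all genes. Npc1, the cholesterol transporter of the lysosomal membrane, was at 81.6, 132 and 95.1 CPM in controls and at 71.1, 49.3 and 91.7 in floxed libraries (log2 fold change -0.54 ± 0.25, edgeR adjusted p 0.264). Ppt1, which removes palmitate from proteins, was at 195, 124 and 180 CPM in controls and at 92.5, 143 and 118 in floxed libraries (-0.50 ± 0.19, edgeR adjusted p 0.19). Both overlapped between groups.

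**Figure D2:**
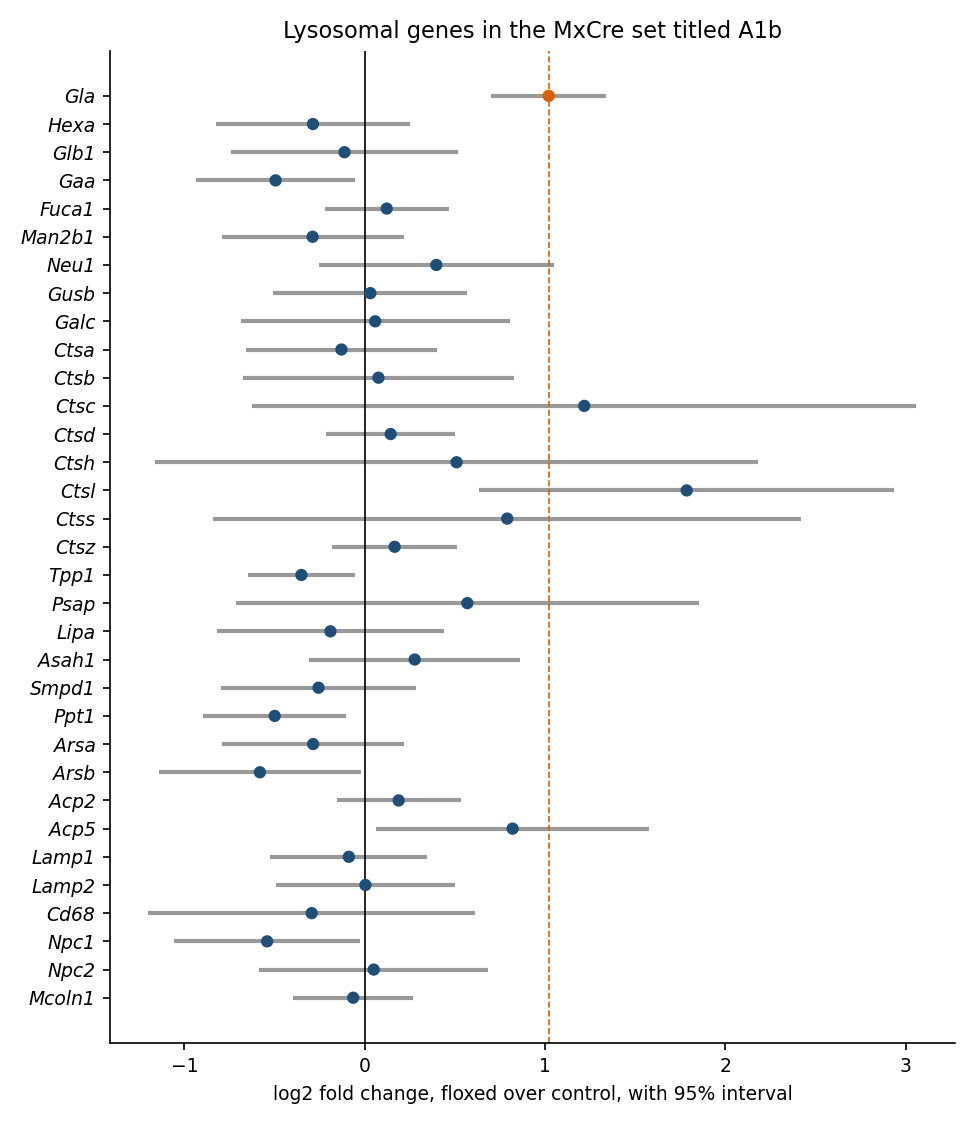
Log2 fold change of floxed over control (horizontal axis) with its 95% interval for each of the 33 lysosomal genes in the MxCre set titled A1b, ordered by role; the dashed line marks the value of Gla, 1.02. For 25 of the 32 other genes the interval ends to the left of that line, and the point values of Ctsl and Ctsc lie to its right. The line leaves out the interval of Gla itself, so the count is a description.

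Some lysosomal genes differed widely between the floxed libraries of this set. Psap, the precursor of the sphingolipid activator proteins, was at 1430, 1190 and 1410 CPM in controls and at 339, 3860 and 1780 in floxed 1 to 3. Ctss, a protease of antigen-presenting cells, was at 236, 196 and 195 CPM in controls and at 30.9, 692 and 362 in floxed libraries. Ctsh, an aminopeptidase, was at 225, 113 and 290 CPM and at 21.8, 481 and 392. In all 3 genes floxed 1 lay below and floxed 2 and 3 above every control. Of 30 monocyte and macrophage markers 29 were in the table and none was at 0 in any group. They summed to 4390 to 4750 CPM in the controls and to 1940, 10600 and 5730 in floxed 1 to 3, with Lyz2, a lysozyme, the most abundant. Their part in the levels of the lysosomal genes was not tested. In bulk RNA, fewer cells of a type and less RNA per cell cannot be told apart.

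Without floxed 1, edgeR called Ctsl higher and Gaa and Tpp1 lower among the 32 genes other than Gla, beside 10.7% of all genes. It called Gla as well, whose values chose the list, so that call is a description. With floxed 2 and 3 and 2 libraries of other sets left out, so that floxed 1 stood alone and was assumed to vary like the other groups, it called 1, Ctsh, lower, beside 0.102% of all genes. In that fit Gla had a log2 fold change of 0.89. Without floxed 1 it was 1.08.

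In the VavCre Arid1b set 4 of 33 lysosomal genes were called, all lower in the floxed libraries, beside 6.57% of all genes called and 3.05% called lower. Acp2, a membrane-anchored acid phosphatase of the lysosome, was at 74.4, 62.8 and 73.8 CPM in controls and at 39.0, 27.2 and 34.8 in floxed 1, 3 and 4. The groups were well apart, and Acp2 fell by 1.06 ± 0.17 on the log2 scale (edgeR adjusted p 0.0036). Tpp1 was at 185, 159 and 182 CPM in controls and at 91.5, 97.2 and 107 in floxed libraries. It fell by 0.83 ± 0.14 (edgeR adjusted p 0.00574), with no overlap.

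Gaa fell by 0.91 ± 0.21 (edgeR adjusted p 0.0189), from 192, 132 and 134 CPM to 79.4, 81.5 and 83.7. Man2b1, the alpha-mannosidase that trims glycoprotein sugars, was the most abundant of the 4. It was at 2110, 1500 and 1450 CPM in controls and at 656, 1030 and 933 in floxed libraries, and fell by 0.95 ± 0.24 (edgeR adjusted p 0.0284). Control 1 was the highest library for both genes, and without it neither passed (edgeR adjusted p 0.11 for Gaa and 0.135 for Man2b1). Both also missed the threshold without each single floxed library. With a term for Y-positive libraries, Acp2 remained called and Galc was called, beside 0.716% of all genes, while Tpp1 (edgeR adjusted p 0.0714), Gaa (0.179) and Man2b1 (0.225) were not. Within this set the presence of the Y chromosome and the genotype cannot be told apart. Acp2 shares part of its span with Ddb2 on the other strand, while no annotated gene overlaps Tpp1, Gaa or Man2b1.

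**Figure D3:**
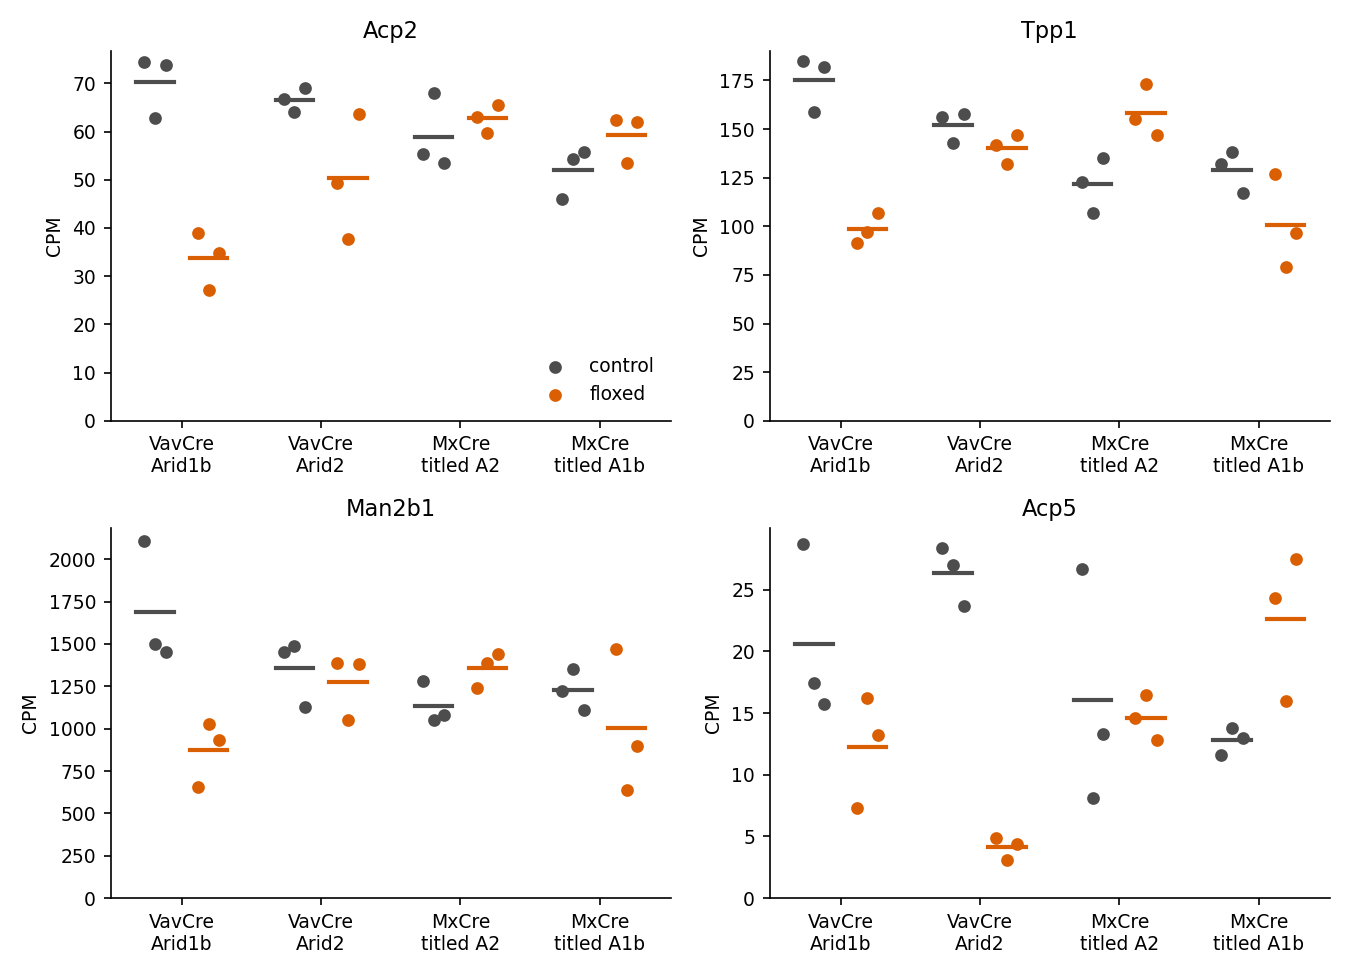
Levels of Acp2, Tpp1, Man2b1 and Acp5 in CPM (vertical axes, from 0) in each library (points), by set, with controls in grey, floxed libraries in orange and group means as bars. Acp2, Tpp1 and Man2b1 separate the groups of the VavCre Arid1b set, and Acp5 those of the VavCre Arid2 set, where floxed libraries lie between 3.07 and 4.87 CPM.

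By role, the VavCre Arid1b set was split. All 9 glycosidases had a log2 fold change below 0, with a median of -0.47, and so had all 4 sulfatases and acid phosphatases, with a median of -0.82. Of the 9 peptidases 7 lay above 0, with a median of 0.66, and of the 5 genes of lipid breakdown 4 lay above 0, with a median of 0.65. The median of all 33 was -0.11, beside -0.06 for all genes. Control and floxed libraries did not overlap for 16 of 33, 8 higher and 8 lower, beside 32.4% of all genes.

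Several genes lay just outside the threshold in either direction. Galc, which breaks down galactolipids of myelin, was at 34.3, 28.9 and 44.9 CPM in controls and at 17.0, 13.7 and 16.9 in floxed libraries, at a log2 fold change of -1.19 ± 0.36 (edgeR adjusted p 0.0532). Neu1 was at 200, 145 and 95.1 CPM in controls and at 60.9, 73.0 and 84.6 in floxed libraries (-1.01 ± 0.31, edgeR adjusted p 0.0569). The floxed libraries of both lay below all controls. Ctss lay the other way, at 42.7, 78.2 and 55.5 CPM in controls and at 233, 481 and 428 in floxed libraries, a log2 fold change of 2.70 ± 0.82 (edgeR adjusted p 0.055).

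Cd68, a membrane glycoprotein used as a macrophage marker, was at 95.4, 112 and 33.9 CPM in controls and at 151, 223 and 255 in floxed libraries (1.38 ± 0.44, edgeR adjusted p 0.0622). Psap was at 733, 822 and 637 CPM and at 1330, 2140 and 2390 (1.42 ± 0.62, edgeR adjusted p 0.172). Ctsc was at 37.6, 66.5 and 11.9 CPM and at 89.3, 136 and 169 (1.77 ± 0.89, edgeR adjusted p 0.236). For Ctss, Cd68, Psap and Ctsc every floxed library lay above every control. The summed monocyte and macrophage markers lay at 1830 to 2330 CPM in these controls and at 4220 to 8130 in the floxed libraries. Of 28 tested, 4 were called higher, beside 3.52% of all genes: Ccr2, Cd163, Klf4 and Cx3cr1. MHC class II and dendritic cell markers lay at 190 to 410 CPM in controls and 1410 to 3330 in floxed libraries, with 10 of 14 called higher and none at 0 in any group. Neutrophil granule genes lay at 3380 to 16500 and at 2540 to 6580 CPM, which overlapped. Other lists lay higher in the floxed libraries with no overlap: immediate-early genes at 196 to 264 and at 358 to 590 CPM, T and NK cell markers at 33.1 to 45.5 and at 59.3 to 117, and erythroid markers at 3.12 to 5.33 and at 10.6 to 41.5. Markers of mast cells, basophils and eosinophils were at 1380, 1030 and 43.0 CPM in controls and at 220, 323 and 250 in floxed libraries. The part of these markers in the lysosomal genes was not tested.

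**Figure D4:**
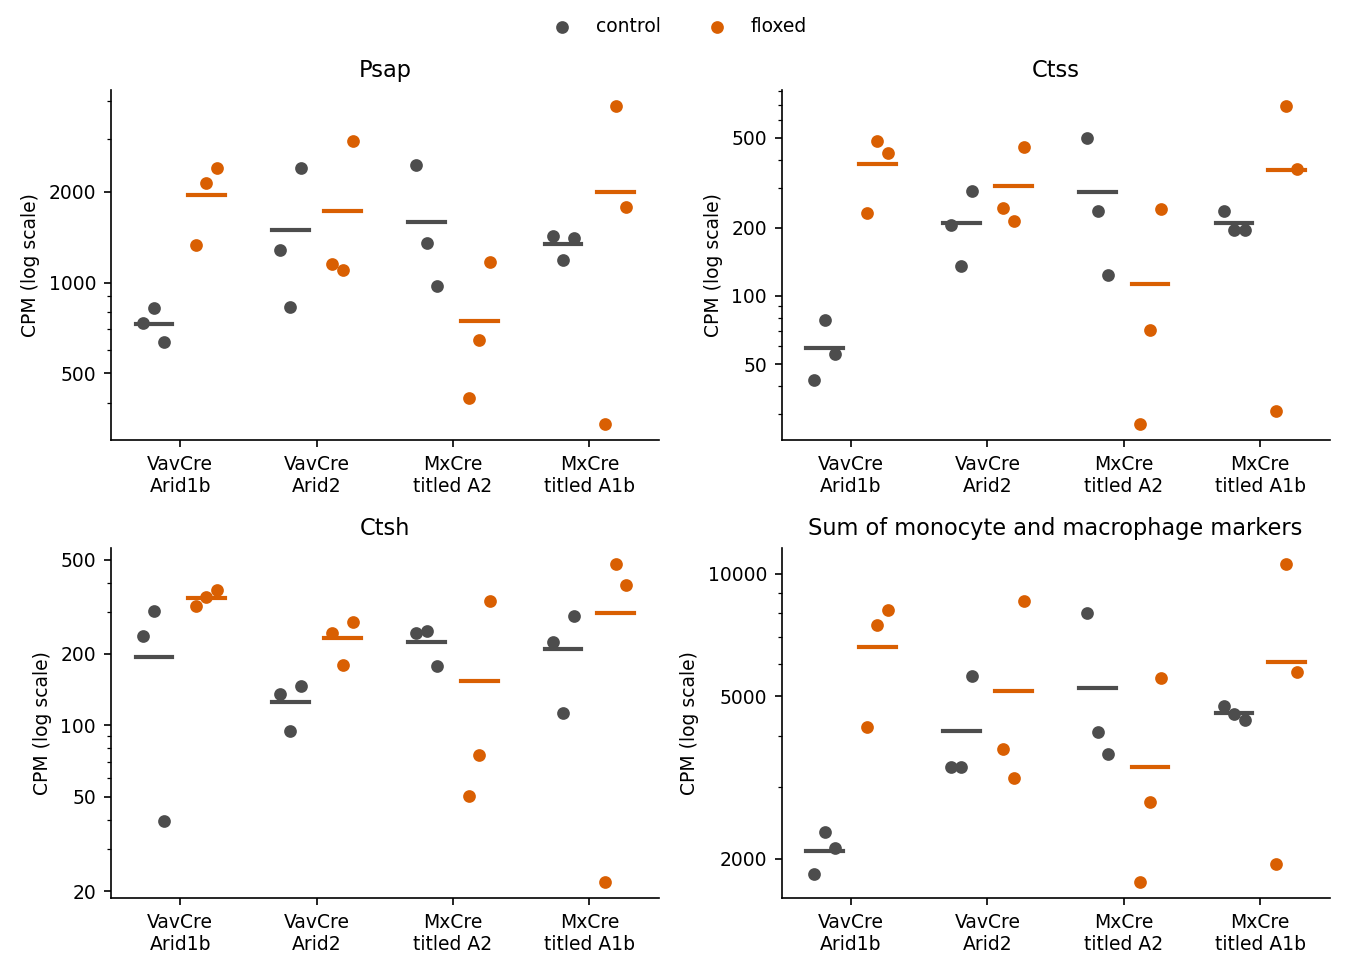
Levels of Psap, Ctss and Ctsh, and the summed level of the monocyte and macrophage markers, in CPM on a log axis, in each library (points), by set, with controls in grey, floxed libraries in orange and group means as bars. Floxed 1 of the MxCre set titled A1b is low in all 4 panels, at 339, 30.9, 21.8 and 1940 CPM, and floxed 2 of that set is the highest library in each, at 3860, 692, 481 and 10600 CPM.

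In the VavCre Arid2 set 1 of 33 lysosomal genes was called, Acp5, beside 1.31% of all genes called and 1.06% called lower. Acp5 was at 28.4, 27.0 and 23.7 CPM in controls and at 4.87, 3.07 and 4.39 in floxed libraries. All 3 floxed libraries were lower than the other 21 libraries of the series. Acp5 fell by 2.68 ± 0.38 on the log2 scale, to 0.156 of the control level (edgeR adjusted p 0.00222), on raw counts of 698 to 1090 in controls and 112 to 187 in floxed libraries. It was called under 15 of 16 alternatives, without each library in turn among them, the exception being the replicate block. A transcript on the other strand, 6530413G14Rik, overlaps it.

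Acp5 was also on a list of 10 osteoclast markers, of which 7 were tested and 3 called, all lower: Acp5, Ctsk and Mmp9. Of the other 4, Atp6v0d2 lay at -0.81 ± 0.64, and Tnfrsf11a, the receptor of the osteoclast factor RANKL, at 1.11 ± 0.73 (edgeR adjusted p 0.513 and 0.421). Nfatc1, a transcription factor of osteoclasts, lay at 0.63 ± 0.29, with every floxed library above the controls, and Dcstamp at 0.12 ± 1.20 (edgeR adjusted p 0.239 and 0.966). Ctsk, the collagen-degrading cathepsin K, was at 9.73, 3.76 and 13.0 CPM in controls and at 1.61, 0.713 and 2.72 in floxed libraries (log2 fold change -2.39 ± 0.58, edgeR adjusted p 0.0497). Mmp9, a gelatinase also made by neutrophils, was at 91.5, 212 and 447 CPM and at 12.2, 2.50 and 9.64 (-4.94 ± 0.98, edgeR adjusted p 0.0192). The list summed to 203 to 582 CPM in controls and to 132 to 149 in floxed libraries, with none at 0 in either group. Without Mmp9 the sums were 111, 102 and 135 CPM in controls and 136, 129 and 131 in floxed libraries, which overlapped. Without Mmp9 and Acp5 they were 82.8, 75.3 and 112 and 132, 126 and 126, higher in the floxed libraries.

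Marker sums of other cell types also differed between the groups of the VavCre Arid2 set, and these sums were not tested. MHC class II and dendritic cell markers lay at 208 to 249 CPM in controls and at 466 to 1280 in floxed libraries, megakaryocyte and platelet markers at 15.8 to 41.2 and at 92.2 to 126, and those of mast cells, basophils and eosinophils at 31.4 to 36.6 and at 76.0 to 286. B cell markers lay at 28.4 to 33.7 CPM and at 4.97 to 6.17, again with no overlap. Neutrophil granule genes, a list that also holds Mmp9, lay at 13300, 13700 and 20800 CPM in controls and at 5220, 3770 and 15000 in floxed libraries, which overlapped. Of their 19 genes 16 lay below 0, with a median log2 fold change of -1.59, and 1 was called, Mmp9. The part of these cell markers in the level of Acp5 was not tested.

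The other 32 genes of the VavCre Arid2 set were not called. Ctsc was at 41.1, 16.2 and 158 CPM in controls and at 117, 94.4 and 284 in floxed libraries, with overlap (1.20 ± 0.87, edgeR adjusted p 0.475). Ctsh was at 135, 94.2 and 146 CPM and at 245, 179 and 274, with no overlap (0.90 ± 0.80, edgeR adjusted p 0.574). Cd68 was at 99.4, 78.6 and 133 CPM and at 155, 193 and 224, also with no overlap (0.88 ± 0.43, edgeR adjusted p 0.274). These 3 had the highest values of the list. The lowest after Acp5 were Neu1, at 123, 145 and 165 CPM in controls and 77.3, 53.8 and 136 in floxed libraries (-0.70 ± 0.31, edgeR adjusted p 0.224), and Gusb, a beta-glucuronidase, at 667, 629 and 429 CPM and 439, 397 and 413 (-0.46 ± 0.26, edgeR adjusted p 0.332). Both overlapped. Groups did not overlap for 8 of 33 genes, 4 in each direction, beside 36.1% of all genes, and the median was 0.17, beside 0.004 for all genes.

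In the MxCre set titled A2, edgeR called 0 of 33 lysosomal genes, beside 0.0284% of all genes. At an unadjusted p under 0.05 there were 10 of 33, 4 higher and 6 lower, beside 10.6% of all genes. DESeq2 called 1, Arsb, beside 1.39% of all genes, and voom with sample weights called 10, beside 8.53%. Groups did not overlap for 9 of 33, 3 higher and 6 lower, beside 15.0% of all genes. The median was -0.18, beside 0.015 for all genes.

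The sulfatases had the highest values of this set. Arsb was at 86.6, 139 and 117 CPM in controls and at 263, 201 and 200 in floxed libraries, a log2 fold change of 0.96 ± 0.27 (edgeR adjusted p 0.239, and 0.0261 to 0.68 under the alternatives). Arsa, which desulfates sulfatide, was at 51.5, 46.6 and 59.4 CPM in controls and at 133, 76.5 and 63.7 in floxed libraries (0.79 ± 0.24, edgeR adjusted p 0.279). In both, every floxed library lay above every control. Gaa followed at 93.4, 101 and 147 CPM in controls and 169, 182 and 111 in floxed libraries, with overlap (0.44 ± 0.21, edgeR adjusted p 0.472).

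The lowest values were those of Ctss, Psap and Ctsl. Ctss was at 500, 236 and 124 CPM in controls and at 27.1, 70.8 and 242 in floxed libraries (-1.34 ± 0.79, edgeR adjusted p 0.585). Psap was at 2450, 1350 and 976 CPM and at 416, 645 and 1170 (-1.10 ± 0.62, edgeR adjusted p 0.56). Ctsl was at 90.4, 45.8 and 22.5 CPM and at 21.3, 20.8 and 36.9 (-1.01 ± 0.54, edgeR adjusted p 0.534). In all 3 floxed 3 lay within the range of the controls, so the groups overlapped. The monocyte and macrophage markers summed to 3620 to 8000 CPM in controls and to 1750, 2750 and 5560 in floxed 1 to 3, and their part was not tested. Without floxed 3 and 3 libraries of other sets, 4 genes were called, beside 3.05% of all genes, all lower: Cd68, Ctsa, Ctsh and Ctss.

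**Figure D5:**
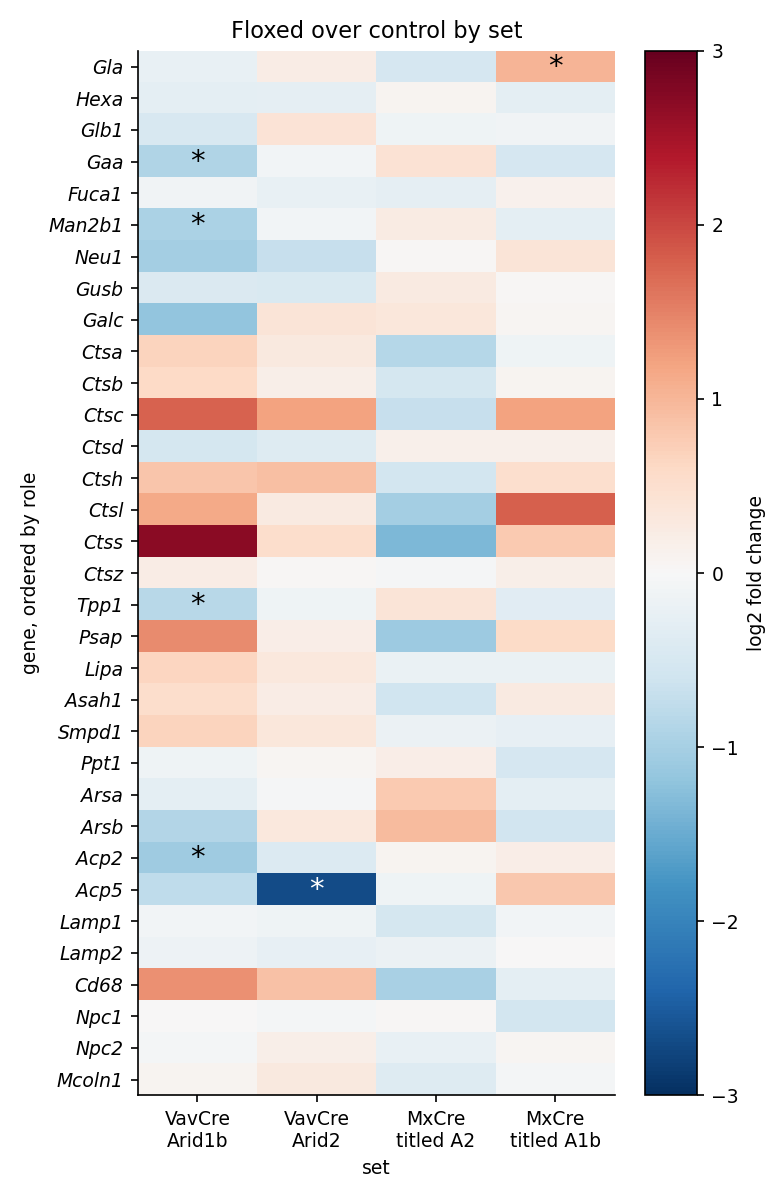
Log2 fold change of floxed over control (colour; red higher, blue lower) for the 33 lysosomal genes (rows, ordered by role) in the 4 sets (columns), with an asterisk where edgeR's adjusted p was under 0.05. Asterisks mark 4 genes in the VavCre Arid1b set, Acp5 in the VavCre Arid2 set, none in the MxCre set titled A2 and Gla in the MxCre set titled A1b.

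The differences between sets were tested directly. Between the MxCre set titled A1b and the VavCre Arid1b set 1 of the 32 genes other than Gla differed, beside 0.745% of all genes. Gla, whose values chose the list, differed by 1.24, given as a description. The gene that differed was Acp2, whose log2 fold change was 1.25 ± 0.23 higher in the MxCre set titled A1b (95% interval 0.76 to 1.74, edgeR adjusted p 0.0208, and 0.000178 to 0.227 under 22 alternatives). In that set Acp2 was at 46.0, 54.3 and 55.7 CPM in controls and at 62.4, 53.4 and 62.0 in floxed libraries, which overlapped.

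Against the VavCre Arid2 set 1 of the 32 differed, Acp5, beside 1.50% of all genes. The difference was 3.50 ± 0.52 (95% interval 2.41 to 4.59, edgeR adjusted p 0.00599, and 5.82e-08 to 0.107 under 22 alternatives). Gla differed by 0.79 in that comparison. Between the 2 MxCre sets edgeR called 0 of the 32, beside 0.192% of all genes, with 7 of 32 at an unadjusted p under 0.05, beside 17.6%. DESeq2 called 3 of the 32, Ctsl, Arsb and Tpp1, beside 4.30% of all genes, and voom with sample weights 0, beside 0.170%. Gla differed by 1.53 there.

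Between the 2 VavCre sets edgeR called 0 of 33, beside 0.0142% of all genes, with 8 of 33 at an unadjusted p under 0.05, beside 9.85%. DESeq2 called 1, Acp5, beside 1.83% of all genes, and voom with sample weights 9, Acp5 and Acp2 among them, beside 17.6%. Whether the fall of Acp5 in the VavCre Arid2 set differs from its value in the VavCre Arid1b set thus depended on the method. In the latter set Acp5 lay at 28.7, 17.4 and 15.7 CPM in controls and at 7.28, 16.2 and 13.2 in floxed libraries. The difference was 1.93 ± 0.51 and not called by edgeR (95% interval 0.86 to 2.99, edgeR adjusted p 0.163). Acp2 differed by -0.66 ± 0.23 between these sets, also not called by edgeR (95% interval -1.14 to -0.17, edgeR adjusted p 0.317).

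Control groups with the same Cre were compared as a measure of how far controls differ. Between the MxCre controls edgeR called 0 of 33 lysosomal genes and 0% of all genes, with 2 of 33 at an unadjusted p under 0.05, beside 5.79%. DESeq2 and voom with sample weights called 0 of 33 as well, beside 0.199% and 0.255% of all genes. Gla was among the 2, lower in the controls of the set titled A1b, and its log2 difference was -0.60 ± 0.15. Between the VavCre controls edgeR called 0 of 33, beside 0.0426% of all genes, with 2 of 33 at an unadjusted p under 0.05, beside 12.5%. DESeq2 called 0, beside 2.43% of all genes, and voom with sample weights 3, beside 20.9%.

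Over all 24 libraries the lysosomal genes varied about as much as others, with a median SD of log2 CPM of 0.38, beside 0.40 for all genes. The widest ranges belonged to Ctsc, from 8.97 to 284 CPM, Ctss, from 27.1 to 692, and Ctsh, from 21.8 to 481. Fuca1, which removes fucose, and Ctsz, a carboxypeptidase, were steady at 68.6 to 113 and 288 to 577 CPM. Mcoln1, the calcium channel of the lysosomal membrane, lay between 29.6 and 57.6 CPM. Per kilobase of exon, Psap had the highest mean level, at 528 CPM per kb, followed by Lamp1, the main glycoprotein of the membrane, at 301, and Ctsz at 274. Galc had the lowest, at 2.35 CPM per kb, below Mcoln1 at 5.03 and Ctsl at 6.77, and Gla was at 9.11.

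Of the structural and carrier genes, Lamp1, Lamp2 and Npc2, which hands cholesterol to Npc1, were called in no set. Lamp1 ran from 502 to 1050 CPM over all libraries, with log2 fold changes between -0.53 and -0.09. Lamp2 ran from 206 to 452 CPM, with values between -0.25 and 0.004. Npc2 ran from 213 to 729 CPM, with values between -0.22 and 0.17. Lipa, the acid lipase of cholesteryl esters, Asah1, the acid ceramidase, and Smpd1, the acid sphingomyelinase, lay at 0.65, 0.54 and 0.67 in the VavCre Arid1b set and were not called there (edgeR adjusted p 0.199, 0.254 and 0.121).

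Other genes of the pathway, in 6 lists, were called in the VavCre sets. None was called in the MxCre sets titled A2 and A1b, where only 0.0284% and 0.00709% of all genes were called. In the VavCre Arid1b set 7 of 40 further hydrolases were called, beside 6.57% of all genes. Sgsh, a sulfamidase, Naaa, an acid amidase, and Scpep1 rose, by 1.31 ± 0.28, 4.16 ± 0.97 and 1.58 ± 0.41. Pld3, Man2b2, Ctsf and Aga fell by 2.40 ± 0.42, 1.02 ± 0.26, 2.81 ± 0.76 and 0.54 ± 0.15. Of 39 further membrane proteins 5 were called. Cd63, a tetraspanin, was at 438, 427 and 312 CPM in controls and at 65.7, 45.3 and 71.9 in floxed libraries, and fell by 2.69 ± 0.33 (edgeR adjusted p 0.00177). Abcb9 fell by 3.18 ± 0.71, and Slc15a4, a histidine and peptide transporter, rose by 1.31 ± 0.27. Tpcn1 rose by 1.15.

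In the machinery around the hydrolases the VavCre Arid1b set had 1 of 19 V-ATPase genes called, beside the same 6.57% of all genes: Atp6ap2, which fell by 0.58 ± 0.14. Of 14 genes of sorting to the lysosome, Sort1, a sorting receptor that does not need the mannose 6-phosphate tag, and the adaptor Gga2 fell by 1.71 ± 0.35 and 1.34 ± 0.28. Of 23 genes of the TFEB family and of mTORC1 control at the lysosome, Rraga rose by 0.74 ± 0.19 and Fnip1 fell by 0.55 ± 0.16. Of 30 autophagy genes, Atg12 fell by 1.20 ± 0.16 and Wipi1 rose by 1.06 ± 0.25. In the VavCre Arid2 set Ctsk was called among 40 hydrolases, and Cd63 among 39 membrane proteins, beside 1.31% of all genes, the latter from 449, 463 and 308 CPM to 148, 85.0 and 141 (-1.71 ± 0.32, edgeR adjusted p 0.015).

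In the MxCre set titled A1b none of the 6 lists held a called gene, which was fixed in advance, as Gla was the single gene called (0.00709% of all genes). The gene with the smallest p was Siae among the hydrolases (-0.79 ± 0.24, edgeR adjusted p 0.139), Clcn3 among the membrane proteins (0.62 ± 0.21, 0.156) and Atp6ap2 of the V-ATPase (0.54 ± 0.14, 0.114). It was Ap1s1 among the sorting genes (0.50 ± 0.19, 0.191), Lamtor4 of mTORC1 control (0.60 ± 0.23, 0.197) and Atg9b of autophagy (2.81 ± 0.70, 0.101). In the set titled A2 none was called either, beside 0.0284% of all genes, and the smallest p-values belonged to Ctsw, Ctns, Atp6v1b2, Gnptg, Tfec and Vps11.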

How the data were processed

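Polyadenylated RNA from 24 libraries was sequenced after directional library preparation, per the labels' protocols. Reads were aligned with STAR to mm10, per the submitters' processing notes. Not given in the sources used here are the read counter, annotation, strand setting and versions. The authors deposited whole-number counts per gene symbol, and 0 columns were left unused.

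Counts were fitted with edgeR 4.0.16 (R 4.3.3): filterByExpr (minimum count 10, total 15), trimmed-mean scaling, and robust quasi-likelihood tests on 8 group means over all 24 libraries (16 residual degrees of freedom, biological coefficient of variation 0.4). Scripts were tested on simulated data with less spread between libraries than the real data have. That checks the scripts and not how well changes are detected here. The members and lists were chosen with earlier results of these data known. Named were Gla, called members, the 3 highest and 3 lowest members of each set, and from each pathway list up to 4 called genes per set or the gene with the smallest p. No gene set test was run. Exon lengths and positions are from GENCODE M21. Alternatives were other scalings, no filter, DESeq2 1.42.0, voom (limma 3.58.1), a term for Y-positive libraries (Kdm5d above 10 CPM), a replicate block, and left-out libraries.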

Additional observations from a re-analysis of the deposited data

Results flagged for a closer look

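Both results below are differences between sets that passed the test of the difference itself. Between the MxCre set titled A1b and the VavCre Arid1b set, the log2 fold change of Acp2 differed by 1.25 ± 0.23, higher in the former (edgeR adjusted p 0.0208). It was not called under 7 of 22 alternatives. The log2 fold change of Acp5 was 3.50 ± 0.52 higher in the MxCre set titled A1b than in the VavCre Arid2 set (edgeR adjusted p 0.00599), and was not called under 1 of 22, the replicate block.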

How the results depend on the processing

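Counts of lysosomal genes called moved by 1.5 times or more as follows, beside the range without each library. For the set titled A1b and its differences the counts can include Gla, whose values there chose the list. In the VavCre Arid1b set 4 became 8 with upper-quartile scaling, 10 with DESeq2, 19 with voom, 2 with the Y term, 0 with the replicate block, 6 without 3 and 7 without 4 doubtful libraries, 7 fitted on the set alone, and 2 to 5 without each library. In the VavCre Arid2 set 1 became 7 with voom and 0 with the block. In the MxCre set titled A2, 0 became 1 with DESeq2, 10 with voom and 4 without the 4 libraries. In the set titled A1b, 1 became 0 with no filter, 2 with DESeq2, 0 with the block, 0 on the set alone, and 0 to 4 without each library (0 without control 1, control 3 or floxed 3).

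For differences, titled A1b against VavCre Arid1b, 2 became 3 with DESeq2, 4 with voom, 3 with the Y term, 0 with the block, 9 without the 4 libraries, 0 on those sets alone and 0 to 2 without each library. Against VavCre Arid2, 1 became 2 with DESeq2, 3 with voom, 0 with the block, 2 without 3 doubtful libraries, 5 without 4, and 1 to 3 without each library. Against titled A2, 1 became 4 with DESeq2, 0 with the block, 0 without the 4 libraries, 0 on those sets alone and 1 to 5 without each library. Between the VavCre sets 0 became 1 with DESeq2, 9 with voom, 1 with the Y term and 1 without the 4 libraries. Between VavCre controls 0 became 3 with voom, 1 without 3 and 1 without 4 libraries. MxCre controls gave 0 in all 15.

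Leaving out 4 libraries together (floxed 2 and 3 of the set titled A1b, floxed 3 of the set titled A2, and VavCre Arid1b control 3) was chosen after seeing the data; the 3 doubtful libraries are these without floxed 3 of the set titled A1b. Without them Ctsl was -0.58 and Ctsc -0.35 in the set titled A1b. Psap was 0.058 in the set titled A2 with the Y term, which that set alone cannot separate from genotype. Over all genes DESeq2, voom, the Y term and the block gave 1815, 4189, 101 and 1 called in the VavCre Arid1b set (926), 1095, 4679, 104 and 3 in the VavCre Arid2 set (185), 196, 1202, 0 and 1 in the set titled A2 (4), and 478, 12, 2 and 1 in the set titled A1b (1). Of the single-gene values, 695 were counted as unchanged, 112 lost a call, 30 gained one and these 3 reversed. Gla in the set titled A1b was counted by direction alone. So were its differences from the VavCre Arid1b set and from the set titled A2. The calls that Gla lost there are therefore not among the 112. The cause was not tested. The block rests on shared replicate numbers that did not pair the samples: deviations from the group means correlated at -0.22 to 0.26 over 11 same-numbered pairs, and not every library correlated best with its own number. It was not fitted to control comparisons. With 3 libraries a group, changes the size of the spread between libraries were not detectable.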
